A study of Equus caballus with 10 samples.

Results

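The genes described here are 10 genes that handle superoxide or belong to the antioxidant programme of the transcription factor NRF2. They were chosen by gene name from the 29196 genes of the deposited table, and all 10 were found in it. They are the superoxide dismutases SOD1, SOD2 and SOD3, the NRF2 gene NFE2L2, and HMOX1, NQO1, SRXN1, TXNRD1, GCLC and GCLM, which are known NRF2 targets. RNA was sequenced from primary tenocytes of the superficial digital flexor tendon of adult horses, expanded by passaging and then cultured for 14 days in 3D gels of bovine collagen type 1. Both groups were given daily doses of PF-06650833 at 100 nM, which blocks IRAK-4, a kinase downstream of the IL-1 receptor. The group called PF received nothing else, and the group called PF + IL-1β also received IL-1β at 17 ng/ml every 3 to 4 days. The same 5 donors, called donors 1 to 5, gave 1 library to each group, so each donor has its own pair. The comparison therefore asks what IL-1β did to these genes while IRAK-4 was inhibited, since libraries without the inhibitor were not used here.

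Superoxide is a reactive by-product of mitochondrial respiration and of NADPH oxidases, and superoxide dismutases convert it to hydrogen peroxide. SOD1 encodes the copper-zinc enzyme of the cytosol, SOD2 the manganese enzyme of the mitochondrial matrix and SOD3 the secreted copper-zinc enzyme that binds to the extracellular matrix. SOD2 is a known target of NFκB, the factor that IL-1β activates. NRF2 is held at a low level by KEAP1, which directs it to the proteasome, and it accumulates under oxidative or electrophilic stress and switches on genes of glutathione, thioredoxin, quinone and heme metabolism. Because NRF2 is controlled largely at the protein level, the mRNA of NFE2L2 is not a measure of its activity.

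All values are variance-stabilized log2 expression as deposited, on which a gene without reads has the value 3.433. Inverting this transformation gave normalized counts, from which the libraries were estimated to hold between 26692774 and 36093461 reads on genes. The estimated reads of the groups overlapped. Among markers of tendon cells, COL1A1, COL1A2, DCN and LUM were abundant, while TNMD, the gene of tenomodulin, was at 0 in every library. SCX, MKX and TNC fell, with log2 fold changes of -3.24, -2.85 and -2.04 (adjusted p from limma 6.11e-04, 0.00554 and 0.0135). The log2 fold changes of COL1A1 (-1.38), COL1A2 (-1.28), THBS4 (-1.22) and FMOD (-1.31) were negative, and those of DCN (1.01) and LUM (0.33) positive. None of these was differentially expressed (adjusted p from limma 0.0614 or more). The summed normalized counts of the 10 tendon markers present were 920000 to 1500000 in PF and 299100 to 1265000 in PF + IL-1β. The sum of the 12 leukocyte markers was 306 to 2030 and 362 to 2176 in the same order, with TYROBP and CD3E at 0 in all libraries and PTPRC at 3.09 or less. Most of the spread came from CD14, which was between 0 and 1660 normalized counts in PF and between 0 and 1680 in PF + IL-1β. One leukocyte marker, CD68, rose from between 52.8 and 103 normalized counts to between 170 and 738 (limma adjusted p = 0.00795). The 7 endothelial markers summed to at most 51.5 normalized counts and the 4 erythroid markers to at most 76.3. The sum of the 4 epithelial markers, nearly all of it CDH1, was 539 to 1574 in PF and 45.4 to 444 in PF + IL-1β, and EPCAM was at 0. CDH1 fell, with a log2 fold change of -2.22 (limma adjusted p = 0.0136). The part of these differences in the results below was not tested. In bulk RNA, a change in the share of a cell type and a change in RNA per cell cannot be told apart.

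In PF + IL-1β, 3 of the 10 genes rose, SOD2, TXNRD1 and NQO1, and 0 fell. The 17992 tested genes were fitted with limma, and a gene had to pass an adjusted p below 0.05 and a log2 fold change of 1 or more in size to count as differentially expressed. By the same criteria 3.11% of all tested genes were higher and 3.57% lower. Leaving out a library or donor gave 2 to 4 of the 10 genes higher and 0 lower, and NQO1 lost its call in 9 of these 15 fits. An unadjusted p below 0.05 was found for 8 of the 10 genes and for 29.7% of tested genes, and the 1 of these 8 in the lower direction was GCLM. With the donor as a block, 4 genes were higher, the added one being SOD3, and 0 were lower, against 4.01% and 4.25% of tested genes. Without the minimum fold change 6 of the 10 genes were higher and 0 lower, where 7.57% and 7.89% of tested genes were, since NFE2L2, HMOX1 and SRXN1 had an adjusted p below 0.05 with smaller differences. This count of 6 was 3 to 5 when a library or donor was left out, and it was 3 (SOD2, NFE2L2 and TXNRD1) without the IL-1β library of donor 2 and without donor 1, 2 or 5. With the block and without that minimum, 7 were higher and 1, GCLM, was lower, where 10.9% and 11.3% of tested genes were. Leaving a donor out of that fit gave 4 to 7 higher, with 4 without donor 1 or 2, and GCLM was lower only without donor 3 or 4. Of the 10 genes, 6 were higher in 5 of 5 donors, as were 16.0% of tested genes. The median log2 fold change of the 10 genes was 0.92, and that of all tested genes was -0.01.

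**Figure D1:**
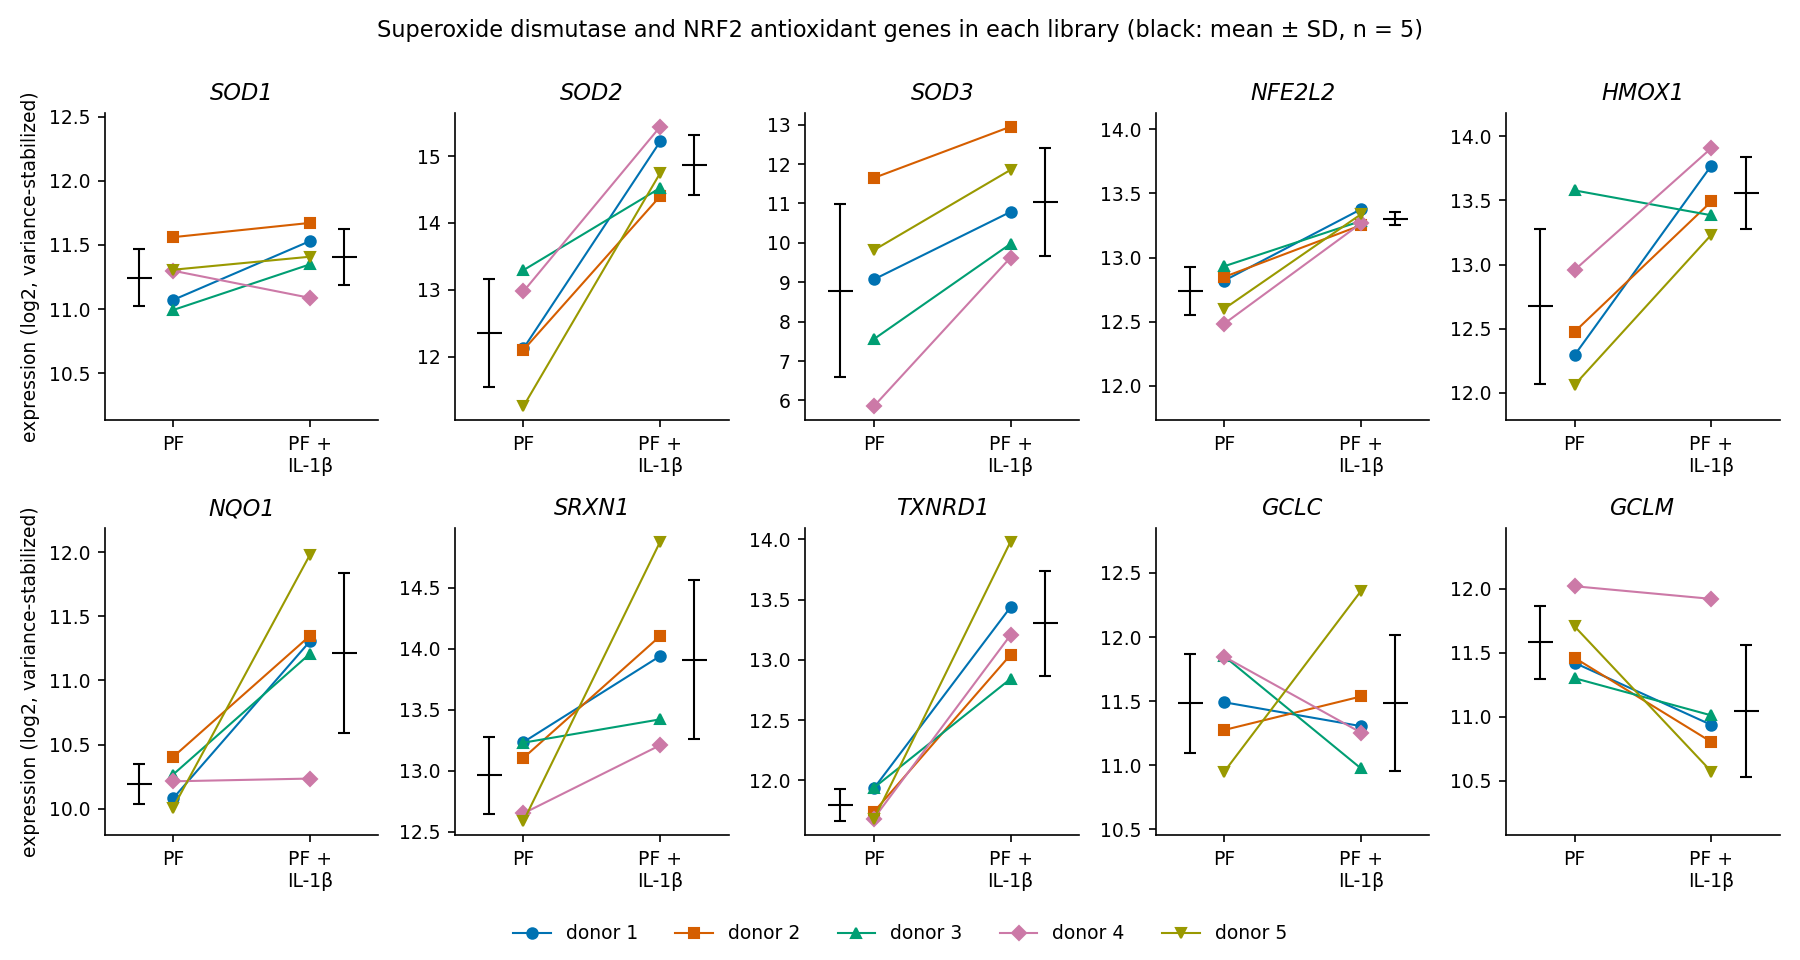
Log2 expression of each of the 10 genes (vertical axis, variance-stabilized, a separate range for each panel) in the PF and PF + IL-1β groups. Each line joins the 2 libraries of a donor and black bars show mean ± SD (n = 5). SOD2, NFE2L2 and TXNRD1 have groups that do not overlap, and the SOD3 lines of the 5 donors run upwards without crossing.

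The mitochondrial enzyme gene SOD2 had the largest increase of the 10. Its log2 expression in PF was 12.12, 12.10, 13.29, 12.97 and 11.25 in donors 1 to 5. In PF + IL-1β it was 15.22, 14.40, 14.52, 15.44 and 14.75 in the same donors. Every library with IL-1β lay above every library without it, and the donors differed less with IL-1β, with a range of 1.04 against 2.04. The group means were 12.35 ± 0.81 and 14.87 ± 0.45 (SD, n = 5). The log2 fold change was 2.52 with a standard error (SE) of 0.36 (limma adjusted p = 0.00129), or 5.74-fold with a 95% confidence interval of 3.33 to 9.88. In normalized counts this was a mean of 5852 against 31080. Of the 17992 tested genes, SOD2 had the 158th largest increase. The difference within a donor was smallest in donor 3, at 1.23, whose library in PF had the highest SOD2 of that group. It was largest in donor 5, at 3.49, whose PF library had the lowest. The PF value is part of the difference, so a low PF value by itself enlarges it.

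The extracellular enzyme gene SOD3 differed more between donors than any other of the 10 genes. In PF it was at 9.07, 11.65, 7.56, 5.85 and 9.82 in donors 1 to 5. PF + IL-1β gave 10.79, 12.95, 9.98, 9.63 and 11.85. The groups overlapped, and donor 2 without IL-1β was above 3 of the libraries with IL-1β, but SOD3 was higher with IL-1β in 5 of 5 donors. The donors had the same order in both groups, with donor 2 highest and donor 4 lowest, which no other of the 10 genes showed and which 2.56% of tested genes did. Its SD within groups was 1.84, pooled over both groups, as large as or larger than that of 99.5% of tested genes. The log2 fold change was 2.25 (SE 0.99, limma adjusted p = 0.153), so SOD3 was not differentially expressed without a donor term. With the donor as a replicate block the SE fell to 0.31 and SOD3 was differentially expressed (limma adjusted p = 0.00287, 95% confidence interval of the log2 fold change 1.52 to 2.98). The difference within a donor was largest in donor 4, at 3.78, whose PF library had the lowest SOD3. It was smallest in donor 2, at 1.30, whose PF library had the highest. The PF value is part of the difference, so a low PF value by itself enlarges it. Donor 4 in PF rested on about 35 reads and the other libraries on 128 or more, so that value has the largest counting error. Leaving donor 4 out left SOD3 differentially expressed with the block (log2 fold change 1.87, limma adjusted p = 0.00128).

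The cytosolic enzyme gene SOD1 had the smallest spread of the 3 dismutases. Its values were 11.07, 11.56, 10.99, 11.30 and 11.31 in PF and 11.53, 11.67, 11.35, 11.09 and 11.41 in PF + IL-1β. The groups overlapped, and donor 4 was lower with IL-1β while the other 4 donors were higher. No difference was detected (log2 fold change 0.16, 95% confidence interval -0.13 to 0.46, limma adjusted p = 0.460). This interval lies below a log2 fold change of 1, and that of SOD2 starts at 1.74.

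**Figure D2:**
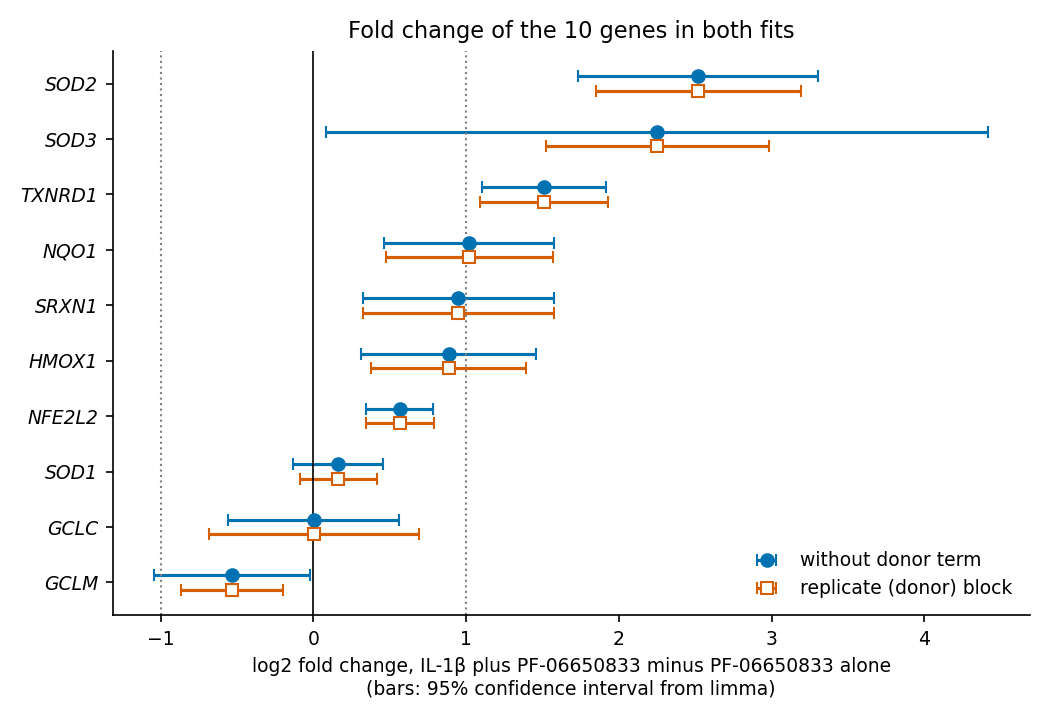
Log2 fold change of the 10 genes (horizontal axis, PF + IL-1β minus PF) with its 95% confidence interval from limma, without a donor term (filled circles) and with the donor as a replicate block (open squares). Dotted lines mark a log2 fold change of -1 and 1. The interval of SOD3 narrows from 0.09 to 4.42 without the block to 1.52 to 2.98 with it, while those of SOD2 and TXNRD1 lie above 1 in both fits.

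NFE2L2, which encodes NRF2 itself, was at 12.82, 12.85, 12.93, 12.48 and 12.60 in PF. In PF + IL-1β it was at 13.38, 13.25, 13.29, 13.27 and 13.34. The groups did not overlap, which held in the higher direction for 3 of the 10 genes and for 6.29% of tested genes, and the 5 libraries with IL-1β lay within 0.125 of each other on the log2 scale. The log2 fold change was 0.57 (SE 0.10, limma adjusted p = 0.00398, 1.48-fold), which is significant but below the minimum fold change. The donors differed least of the 10 genes here, with an SD within groups of 0.14, as large as or larger than that of 9.2% of tested genes.

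Among the NRF2 targets, TXNRD1 had the largest difference. It encodes the cytosolic thioredoxin reductase, a selenoprotein that returns oxidized thioredoxin to its reduced form with electrons from NADPH. The values were 11.93, 11.74, 11.94, 11.68 and 11.67 in PF and 13.44, 13.04, 12.84, 13.21 and 13.98 in PF + IL-1β. The groups did not overlap, and the libraries in PF were within 0.26 of each other while those with IL-1β spread over 1.14. TXNRD1 rose by a log2 fold change of 1.51 (SE 0.18, limma adjusted p = 5.84e-04), or 2.85-fold with a 95% confidence interval of 2.15 to 3.78. It had the smallest adjusted p of the 10 genes.

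NQO1, the quinone reductase gene that is often used as a readout of NRF2, was at 10.08, 10.40, 10.27, 10.21 and 10.01 in PF. PF + IL-1β gave 11.30, 11.35, 11.21, 10.23 and 11.98. Donor 4 was the exception, with a difference of 0.02, while the other 4 donors were higher by 0.94 to 1.97, so the groups overlapped through that donor. The log2 fold change was 1.02 (SE 0.25, limma adjusted p = 0.0198), just above the minimum fold change. When single libraries or donors were omitted, NQO1 was not differentially expressed in 9 of 15 fits. The single libraries that ended the call were those of donors 1 and 5 in PF and of donors 1, 2 and 5 in PF + IL-1β, with log2 fold changes of 0.83 to 0.999. Both libraries of donor 1, 2, 3 or 5 also did so. Without donor 5 the log2 fold change was 0.78, and without donor 4 it was 1.27.

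SRXN1 encodes sulfiredoxin, which repairs over-oxidized peroxiredoxins. Its values were 13.23, 13.10, 13.23, 12.65 and 12.59 in PF and 13.94, 14.10, 13.42, 13.21 and 14.88 in PF + IL-1β. It was higher with IL-1β in 5 of 5 donors, by 0.19 in donor 3 and by 2.29 in donor 5, and the groups overlapped by the library of donor 4. The log2 fold change of 0.95 (SE 0.28, limma adjusted p = 0.0445) was below the minimum. Without donor 3 it was 1.14 and without donor 4 it was 1.05, and SRXN1 then counted as differentially expressed (adjusted p from limma 0.0409 and 0.0400). It also did so without the single IL-1β library of donor 3 (1.07) or of donor 4 (1.13). In the other 11 of 15 fits that left out a library or donor its adjusted p was not below 0.05, reaching 0.144 without donor 2, and the log2 fold change was 0.61 without donor 5.

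HMOX1 encodes heme oxygenase 1, which breaks heme down to biliverdin, iron and carbon monoxide. It was at 12.29, 12.47, 13.58, 12.96 and 12.06 in PF. In PF + IL-1β it was at 13.77, 13.49, 13.38, 13.91 and 13.23. In donor 3 HMOX1 was lower by 0.19 with IL-1β, and its PF value, which is part of that difference, was the highest of the group. The other 4 donors were higher by 0.95 to 1.48, and the groups overlapped. The log2 fold change was 0.89 (SE 0.26, limma adjusted p = 0.0418), below the minimum. Without donor 3 it was 1.16 (adjusted p = 0.00815), and without only its PF library 1.11 (limma adjusted p = 0.00521), and HMOX1 then counted as differentially expressed. In the other 13 of 15 fits that left out a library or donor its adjusted p was not below 0.05, reaching 0.185 without donor 1, and it was 0.0608 from limma after quantile normalization.

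The 2 subunits of glutamate-cysteine ligase, which makes the first and rate-limiting step of glutathione synthesis, were not differentially expressed. GCLC, the catalytic subunit, was at 11.49, 11.27, 11.85, 11.85 and 10.95 in PF and at 11.30, 11.54, 10.97, 11.25 and 12.36 in PF + IL-1β. Donors 1, 3 and 4 were lower with IL-1β and donors 2 and 5 higher, by 1.41 in donor 5, and no difference was detected (95% confidence interval of the log2 fold change -0.56 to 0.56, limma adjusted p = 0.995). GCLM, the modifier subunit, was at 11.42, 11.46, 11.30, 12.02 and 11.71 in PF and at 10.94, 10.80, 11.01, 11.92 and 10.57 in PF + IL-1β. It was the 1 gene of the 10 that was lower in 5 of 5 donors, where 16.8% of tested genes were, and the difference was not significant without a donor term (log2 fold change -0.53, SE 0.23, limma adjusted p = 0.149). With the replicate block its adjusted p was 0.0353, still below the minimum fold change. In that fit the adjusted p from limma was 0.0986, 0.11 and 0.0750 without donors 1, 2 and 5. Without the block it was 0.0114 when donor 4 was left out, and 0.00841 without only the IL-1β library of that donor. Donor 5 had both the largest increase of GCLC and the largest decrease of GCLM, at -1.13.

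**Figure D3:**
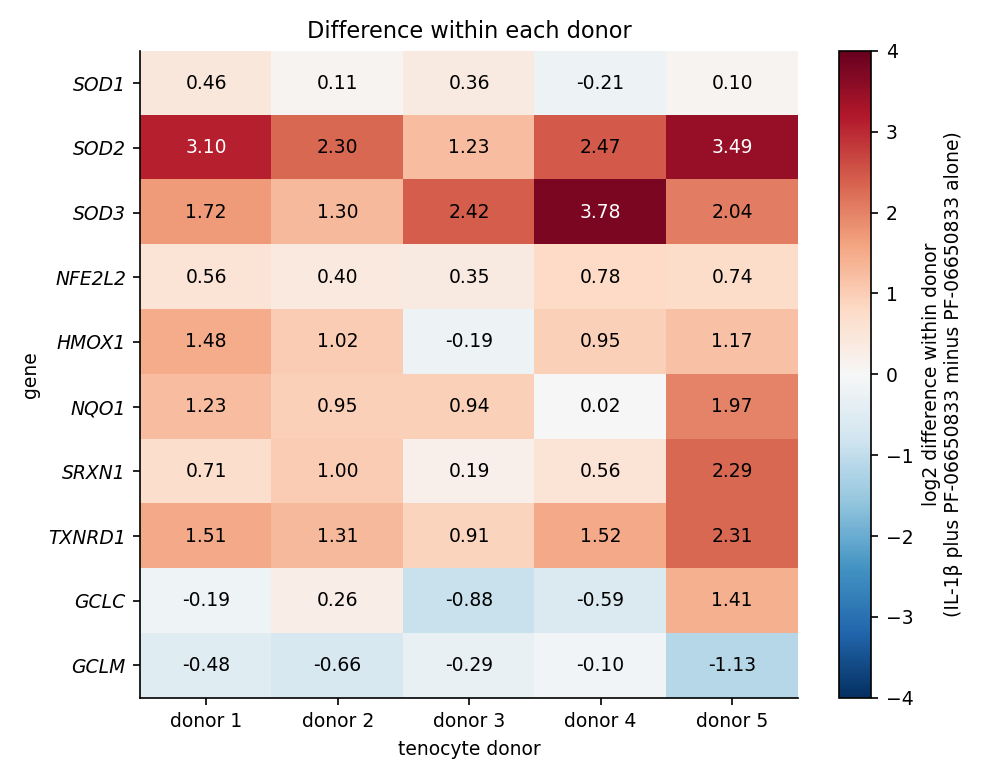
Difference in log2 expression within each donor (columns) for the 10 genes (rows), PF + IL-1β minus PF, with red above 0 and blue below 0. In size, whatever the sign, donor 5 holds the largest difference of 6 genes and donor 3 the smallest of 5.

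The size of the differences varied between donors. Whatever the sign, donor 5 had the largest difference of 6 of the 10 genes, namely SOD2, NQO1, SRXN1, TXNRD1, GCLC and GCLM, where 28.4% of all tested genes had their largest difference in that donor. In donor 5 the median difference of the 10 genes was 1.69 on the log2 scale. Donor 3 had the smallest difference of 5 of the 10 genes, namely SOD2, NFE2L2, HMOX1, SRXN1 and TXNRD1, where 31.1% of tested genes had theirs. In donor 3 this median was 0.35. The median absolute difference over all tested genes was also largest in donor 5, at 0.413, and smallest in donor 3, at 0.254. These values describe 1 pair of libraries per donor and were not tested.

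Over the 10 libraries, the expression of IFNGR2, SLC33A1, SLC7A2, MSC and RTN1 was most like that of SOD2, among tested genes with a symbol. The Pearson correlations on the log2 scale were 0.985, 0.983, 0.969, 0.961 and 0.959. The points are the same 10 libraries in 2 groups that differ in SOD2, so these correlations are a description. IFNGR2, a subunit of the interferon-γ receptor, had a log2 fold change of 0.84 (limma adjusted p = 0.00465), and SLC33A1, an acetyl-CoA transporter of the endoplasmic reticulum, one of 0.65. SLC7A2, which transports cationic amino acids, rose far more, with a log2 fold change of 6.87 (limma adjusted p = 6.52e-04). MSC, the gene of the transcription factor musculin, had a log2 fold change of 1.01, at the minimum, and RTN1, a reticulon gene, of 3.32.

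The surroundings of the 10 genes were described with 7 lists of related genes. Of 98 tested genes in these lists, 10 rose and 6 fell by limma, where 3.11% and 3.57% of all tested genes did. The median log2 fold change of the 98 genes was 0.17. With the replicate block 12 were higher and 6 lower, against 4.01% and 4.25% of all tested genes.

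**Figure D4:**
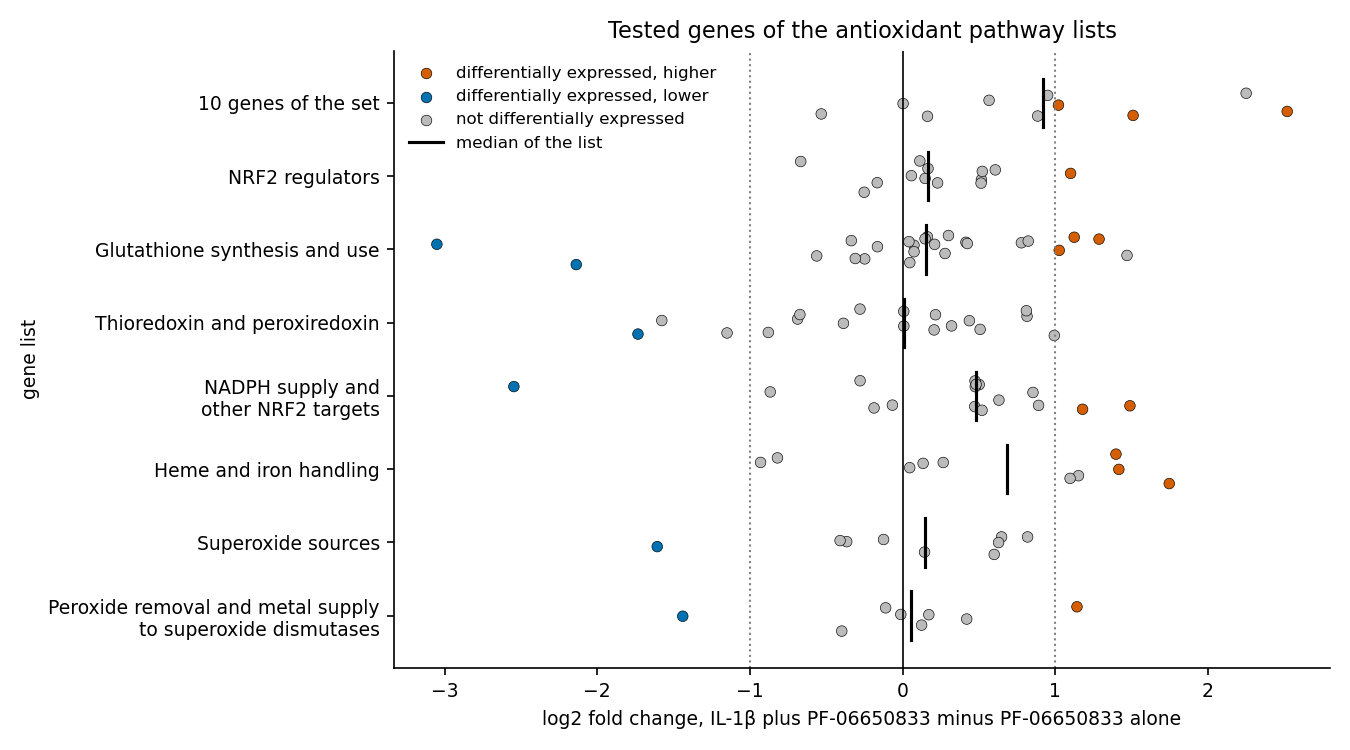
Log2 fold change (horizontal axis, PF + IL-1β minus PF) of the 10 genes and of the tested genes of the 7 lists (vertical axis, points spread at random within a list). Orange points are differentially expressed and higher, blue points differentially expressed and lower, black bars are medians, and dotted lines mark -1 and 1. The 10 genes have a median of 0.92, and the largest decreases are those of GPX3, EPHX1 and CHAC1 in the lists.

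Of 13 NRF2 regulators, 1 rose and 0 fell by limma, where 3.11% and 3.57% of all tested genes did. An unadjusted p below 0.05 was found for 5 of the 13 and for 29.7% of all tested genes. The median log2 fold change of the list was 0.17. SQSTM1, which encodes p62, a protein that binds KEAP1 and autophagy cargo, rose from between 13.80 and 14.90 to between 14.85 and 15.78 (log2 fold change 1.10, limma adjusted p = 0.0101, higher in 5 of 5 donors). The ranges overlapped narrowly. KEAP1 itself had a log2 fold change of 0.52 (adjusted p = 0.00370) and MAFK, a partner of NRF2 on DNA, of 0.61 (limma adjusted p = 0.0193), both below the minimum fold change. BACH1, the repressor that competes with NRF2, had a log2 fold change of 0.17 (adjusted p = 0.681).

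Of 24 tested genes of glutathione synthesis and use, 3 rose and 2 fell, where 3.11% and 3.57% of all tested genes did. The median log2 fold change of the list was 0.16. GPX3, the secreted glutathione peroxidase, fell most of the genes in the 7 lists, from between 9.58 and 11.52 to between 7.18 and 8.48 (log2 fold change -3.05, SE 0.36, limma adjusted p = 4.41e-04). CHAC1, which degrades glutathione, fell with a log2 fold change of -2.14 (adjusted p = 9.72e-04). GLRX, the cytosolic glutaredoxin gene, rose by 1.29 (limma adjusted p = 0.00286). The groups of these 3 genes did not overlap, and each moved in the same direction in 5 of 5 donors. They were picked from the same values, as the 3 differentially expressed genes of the list with the smallest adjusted p. Among the 17992 tested genes, 1131 had groups apart in the higher direction and 1153 in the lower. In 5 of 5 donors 16.0% of tested genes were higher and 16.8% lower. GSR, the glutathione reductase gene (1.03), and ABCC4, an efflux transporter gene (1.12), were the other genes that rose. The cystine transporter gene SLC7A11 had a log2 fold change of 1.47 but did not pass (limma adjusted p = 0.0618, higher in 4 of 5 donors).

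Of 18 thioredoxin and peroxiredoxin genes, 0 rose and 1 fell by limma, where 3.11% and 3.57% of all tested genes did. An unadjusted p below 0.05 was found for 12 of the 18 and for 29.7% of all tested genes. The median log2 fold change of the list was 0.0081. TXNIP, whose protein inhibits thioredoxin, fell from between 12.01 and 12.65 to between 9.98 and 11.41 (log2 fold change -1.73, limma adjusted p = 0.00277, lower in 5 of 5 donors). TXN, the gene of the thioredoxin that TXNRD1 reduces, had a log2 fold change of 0.99 (adjusted p = 0.0110), just below the minimum. PRDX3, the mitochondrial peroxiredoxin gene, had one of 0.81 (adjusted p = 0.00416), and TXNRD2, the mitochondrial thioredoxin reductase gene, one of 0.0083 (limma adjusted p = 0.973).

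Of 16 tested genes of NADPH supply and other NRF2 targets, 2 rose and 1 fell (3.11% and 3.57% of all tested genes). The median log2 fold change of the list was 0.48. PIR, the pirin gene, rose by a log2 fold change of 1.18 (adjusted p = 0.00821), and ALDH3A1, an aldehyde dehydrogenase gene, by 1.49 (limma adjusted p = 0.0351) from low levels, with donor 1 at 0 reads in PF. The mean normalized count of ALDH3A1 was 4.74 in PF and 45.2 in PF + IL-1β. Its log2 fold change ranged from 1.10 to 3.155 under other processing choices, so its size depends on the scale used. EPHX1, the microsomal epoxide hydrolase gene, fell from between 10.89 and 12.97 to between 8.02 and 10.31 (log2 fold change -2.55, limma adjusted p = 0.00730). IDH1, whose enzyme makes NADPH, had a log2 fold change of 0.85 (limma adjusted p = 4.45e-04), below the minimum, and ME1, which also makes NADPH, had a log2 fold change of -0.87 (adjusted p = 0.0101).

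Of 10 tested genes of heme and iron handling, 3 rose and 0 fell by limma (3.11% and 3.57% of all tested genes). With the replicate block 5 were higher, against 4.01% of all tested genes. The median log2 fold change of the list was 0.68. SLC11A2, an iron importer, rose from between 9.57 and 10.25 to between 11.25 and 12.26 (log2 fold change 1.75, limma adjusted p = 3.86e-04). FTL, the ferritin light chain gene, rose by 1.42 (adjusted p = 0.00530), and BLVRB, a biliverdin reductase gene, by 1.40 (limma adjusted p = 0.0156). The other reductase gene, BLVRA, had a log2 fold change of -0.82 (adjusted p = 0.00210), below the minimum. FTH1, the ferritin heavy chain gene, varied over several log2 units between donors and had a log2 fold change of 1.15, with an adjusted p of 0.428 without and 0.0209 with the replicate block. The transferrin receptor gene TFRC had a log2 fold change of 1.10, with adjusted p-values from limma of 0.108 without and 0.0164 with the block. Ferritin genes have processed pseudogenes that can share reads, so their values are less certain.

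Of 9 tested genes of superoxide sources, 0 rose and 1 fell by limma, where 3.11% and 3.57% of all tested genes did. An unadjusted p below 0.05 was found for 3 of the 9 and for 29.7% of all tested genes. The median log2 fold change of the list was 0.14. NOX4, an NADPH oxidase gene of mesenchymal cells, fell from between 8.39 and 9.96 to between 6.65 and 8.18 (log2 fold change -1.61, limma adjusted p = 0.00848, lower in 5 of 5 donors, groups apart). CYBA, the p22phox subunit gene that NOX4 needs, had a log2 fold change of 0.65 (adjusted p = 0.00969), below the minimum. The phagocyte oxidase gene CYBB and the genes NOX1, NOX3, NOX5 and DUOX2 had too few reads to be tested.

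Of 8 tested genes of peroxide removal and metal supply, 1 rose and 1 fell (3.11% and 3.57% of all tested genes). The median log2 fold change of the list was 0.057. CAT, the catalase gene, fell from between 13.58 and 14.24 to between 11.81 and 13.01 (log2 fold change -1.44, SE 0.22, limma adjusted p = 0.00175), and the groups did not overlap. ATOX1, a copper chaperone gene, rose by 1.14 (limma adjusted p = 0.00340). CCS, which delivers copper to SOD1, had a log2 fold change of -0.01 (adjusted p = 0.959). Of the other genes whose enzymes remove peroxides, GPX3 also fell. PRDX2 (log2 fold change 0.51, adjusted p = 0.0133) and PRDX5 (0.44, limma adjusted p = 0.0196) were higher below the minimum fold change, like PRDX3. GPX1 (0.28), GPX2 (0.05), GPX4 (0.30), GPX8 (0.07), PRDX1 (0.82), PRDX4 (0.21) and PRDX6 (0.32) had positive log2 fold changes, and GPX7 (-0.25) a negative one. Without a donor term none of these was significant (limma adjusted p 0.0949 or more). With the replicate block only PRDX1 was (limma adjusted p = 0.0178).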

How the data were processed

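RNA-seq libraries of equine tenocytes (5 per group) were made by the authors, who quantified reads with Salmon (version 1.8) on the EquCab3.0 transcriptome with GC-bias correction and imported them with tximport. The submitters' processing notes also name FastQC (version 0.11.9) and DESeq2 (version 1.36). The authors deposited log2 values that are normalized between libraries. The variance-stabilizing transformation is not given in the sources used here and was recognised from the lowest value, 3.433, shared by all libraries. Raw counts were not used here, and all 10 columns were used. Normalized counts and reads are approximate.

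The 17992 genes that exceeded this lowest value in 5 or more libraries were tested with limma 3.58.1 in R 4.3.3, using a mean-variance trend, no donor term and Benjamini-Hochberg adjustment over all of them. A second fit added the donor as a replicate block. Every adjusted p-value comes from limma. The numbers pair the libraries, since the labels give the same tenocyte line. Deviations from the group means were correlated within donors (correlations across genes 0.367 to 0.506 over 5 pairs). Over 20 pairs of different donors the mean was -0.107. Since deviations from a group mean cancel out over its libraries, that mean largely follows from the values within donors and is no separate comparison. Alternatives were other filters, scales, normalizations, variance models and thresholds, the block, and the omission of single libraries or donors.

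The 10 genes and the 7 lists were chosen with earlier results of these data known. Named genes are the 10, per list the 3 with the smallest adjusted p among those differentially expressed, and the 5 genes most correlated with the 1 of the 10 that rose most. Other genes of the lists were named after their values were seen. Of the list genes, 109 of 121 were in the table, and COL3A1 was not analysed here.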

Additional observations from a re-analysis of the deposited data

Results flagged for a closer look

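Of 58 groups of 5 libraries, for 29 named genes, 1 held a library far from the other 4, where chance gives about 2.9. The PF + IL-1β library of donor 3 had ATOX1 at 10.84, against 11.44 to 11.65 in the other 4 libraries of that group. No cause was tested.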

How the results depend on the processing

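Of the 10 genes, 9 kept their direction under all 29 alternatives that keep the thresholds. The exception was GCLC, whose log2 fold change near 0 was -0.022 under quantile normalization and ranged from -0.35 to 0.22 when a library or donor was left out (-0.061 with the replicate block and without donor 2, -0.35 with it and without donor 5). For 5 of the 10 genes, SOD1, SOD2, NFE2L2, GCLM and TXNRD1, direction and call, with the minimum fold change, were the same throughout. The adjusted p-values of HMOX1 and SRXN1, near 0.05, were not below it in 13 and 11 of 15 fits without a library or donor, nor without a mean-variance trend (0.0559 and 0.0581). NQO1 lost its call without the PF library of donor 1 or 5, without the IL-1β library of donor 1, 2 or 5, and without donor 1, 2, 3 or 5, with log2 fold changes of 0.78 to 1.04. With the replicate block it lost it without donor 1, 2 or 5. SOD3 gained its call with the block, and had it also when any 1 donor was left out of that fit. HMOX1 and SRXN1 gained it without donor 3 and under the further fits given with them.

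The number of the 10 genes that were higher was 6 without a minimum fold change, 7 without it and with the replicate block, and 6 with the block and without donor 3. The fits with the block that leave out a donor were chosen after seeing the data. The number lower was 1 without a minimum fold change and with the block. With the minimum fold change and no block, 3 were higher and 0 lower. Those 2 numbers ranged from 2 to 4 and from 0 to 0 when a library or donor was left out. In the 7 lists, without a minimum fold change 24 of the 98 tested genes were higher and 10 lower, where 7.57% and 7.89% of all tested genes were. With the block and without that minimum, 34 were higher and 16 lower, against 10.9% and 11.3% of all tested genes. At an adjusted p below 0.01, 6 were higher. Leaving out a library or donor gave 5 to 11 higher, with 5 without donor 1 and 6 without donor 5, and 6 to 9 lower. SQSTM1, PIR, ALDH3A1 and BLVRB, and MSC, named for its likeness to SOD2, each lost their call in some of these fits. ALDH3A1 lost it in 8 of 15, with adjusted p-values from limma up to 0.128. The replicate block changed no call of the 10 genes other than that of SOD3. The cause of these changes was not tested, apart from the fewer libraries. No scaling moved the median of all tested genes by more than 0.03 on the log2 scale.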

Other observations

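Some genes of the lists had large differences without passing the test. MSRB2, a mitochondrial methionine sulfoxide reductase gene, was lower in 5 of 5 donors, with values of 7.12 to 8.40 in PF and 4.45 to 7.13 in PF + IL-1β (log2 fold change -1.58, adjusted p = 0.0774 from limma). SESN3, a sestrin gene, was lower in 4 of 5 donors, with values of 11.44 to 12.03 and 9.24 to 11.90 (log2 fold change -1.15, adjusted p = 0.0798 from limma). With the replicate block their adjusted p-values were 0.0777 and 0.0729.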
